A study of Mus musculus with 8 samples.

Results

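The genes described here are 10 regulators of epithelial fate, namely Trp63, Sox2, Pitx1, Klf4, Klf5, Grhl3, Elf3, Ovol1, Etv4 and Bmi1. They were picked by symbol out of the 32285 genes counted in each single-cell RNA-seq library of mouse tongue epithelium, with earlier results of these data known. Their levels were read in 12957 of 42550 cells, the epithelial cells, in which Krt5, Krt14, Krt15, Krt13 and Krt6a together made up at least 0.5% of the unique molecular identifiers (UMIs, each standing for 1 captured transcript) and Ptprc, the common leukocyte gene, had 0 UMIs. All 10 genes passed the filter on low counts in every comparison under the main settings, though Bmi1 and Etv4 did not in some alternative fits.

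The study asked how an active YAP and the HPV16 oncoproteins E6 and E7 change oral epithelial progenitor cells at the start of a tumor. Each of 4 groups had 2 libraries of viability-sorted cells, taken 15 days after induction. All mice, controls included, carried Krt14-CreERT and LSL-rtTA, a Cre that tamoxifen activates in cells using the keratin 14 promoter and a transactivator that this Cre switches on, together with an H2B-GFP reporter. N mice carried nothing more, E mice added tetON_E6-E7, Y mice added tetON_YAP1S127A, a YAP1 allele that escapes Hippo inhibition, and EY mice added both. Tamoxifen was injected into the tongue and doxycycline was given in the chow, to littermates of 8 to 16 weeks in groups balanced for sex. Only cells that used the Krt14 promoter when tamoxifen was given, and their progeny, can carry the active transgenes, so each library mixes cells with and without them. The label of N2 names a pair of animal numbers, and N2 may therefore hold pooled cells.

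p63, encoded by Trp63, and SOX2 are factors of the basal layer, where stem and progenitor cells of stratified epithelium divide, and p63 is required for that layer to form. As cells leave the basal layer, GRHL3, ELF3, OVOL1 and KLF4 take part in differentiation and barrier formation, while KLF5 acts in both proliferating and differentiating cells. PITX1 marks oral ectoderm, ETV4 is an ETS factor that answers to ERK signaling, and BMI1 is a subunit of Polycomb repressive complex PRC1 known for its part in stem cell self-renewal.

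The libraries differed in size. N1 held 3447 epithelial cells and EY1 only 170, and the summed epithelial UMIs ranged from 2454816 in EY1 to 55154619 in E1. The study's upper limits of 5500 genes and 30000 UMIs a cell, which are used here, removed between 2.10% of epithelial cells in N1 and 64.7% in EY1. Yap1, the check of the YAP transgene, was at 31.5 to 46.1 CPM in the 4 libraries without it. In the 4 libraries with it Yap1 was at 174 to 447 CPM. CPM is a gene's UMIs as a rate over a library's epithelial UMIs of genes that passed the low-count filter, scaled as described below. Yap1 was counted on the mouse reference, so it may mix endogenous transcripts with those of the transgene. The paper counted the transgene apart, with its sequence added to the genome. The E6-E7 transcripts were not analysed here, and Mcm2, a replication gene that E2F activates, was at 5.72 and 12.2 CPM in N against 25.5 and 38.6 CPM in E. Mcm2 is given for N and E only, so it checks neither E6-E7 in EY nor whether Mcm2 also rises with YAP alone. Marker sums are CPM over all epithelial UMIs of a library, without library scaling. The epithelial marker sum was 17070 to 22886 CPM in all 8 libraries. Among the markers of other cells, the neutrophil sum reached 1053 CPM in EY1 and 247 CPM in EY2 against at most 63.5 CPM elsewhere, and the gland or duct sum reached 937 CPM in N2. The taste cell sum was 164 CPM in EY1 and 36.3 CPM in EY2 against at most 14.3 CPM elsewhere, and the erythroid sum ran from 1.73 CPM in EY2 to 679 CPM in N2. The fibroblast sum, nearly all Dcn, ranged from 28.3 CPM in EY2 to 1226 CPM in N2, and the part of these markers in the results below was not tested, apart from refits without the gland or duct cells and without cells holding other immune transcripts, which changed some calls given below. Across the 8 libraries 235 cell barcodes occurred in more than 1 library, of which 28 were epithelial in more than 1.

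Sox2 fell and Elf3 rose in the epithelial cells of mice with the YAP transgene, and Trp63 showed the largest drop of the 10 genes but did not pass the threshold. The comparison set the 4 libraries with the transgene (Y and EY) against the 4 without it (N and E), and is called the YAP effect here. Its model was additive, with the E6-E7 transgene as a covariate. UMIs were summed per library, scaled by edgeR's trimmed mean of M-values (TMM), and tested with edgeR's quasi-likelihood test. A gene was called at a Benjamini-Hochberg adjusted p under 0.05 over all 13555 genes tested. Of the 10 genes 2 were called, 1 in each direction, against 8.98% of all genes tested, or 5.26% higher and 3.72% lower. The remaining 7 had log2 fold changes from -0.29 for Ovol1 to 0.18 for Klf4. Because labels do not say whether the libraries of a group came from separate litters or days, the p-values measure the spread between these libraries. In stained sections of this model the paper found P63-positive cells above the basal layer with active YAP, and SOX2-positive cells there in EY. Staining counts cells with the protein by position, while the values here are transcripts summed per library. The measures were not compared here.

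Trp63 (chr16:25683763-25892102, plus strand, GENCODE M21 on GRCm38) encodes p63. Its level was 212 CPM in N1, 358 CPM in N2, 188 CPM in E1 and 295 CPM in E2. In the YAP libraries it was 167 CPM in Y1, 124 CPM in Y2, 143 CPM in EY1 and 63.3 CPM in EY2. Every YAP library was therefore below every other library, and EY2 was the lowest. The log2 difference was -1.10 ± 0.29 (SE, n = 4 and 4), with an adjusted p of 0.0510 in edgeR's quasi-likelihood test. It passed the threshold under all 7 other settings tried, among them DESeq2 with an adjusted p of 0.00456 and the fit without upper limits on cells with -1.34 and 0.00229. It passed in none of the 8 fits that left out 1 library, where edgeR's adjusted p was 0.0519 to 0.125.

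Sox2 (chr3:34650405-34652461, plus strand) is a single-exon gene whose product works with p63 in squamous progenitors. Levels without the YAP transgene were 119 CPM in N1, 94.3 CPM in N2, 106 CPM in E1 and 125 CPM in E2. With it they were 88.9 CPM in Y1, 70.4 CPM in Y2, 62.2 CPM in EY1 and 48.9 CPM in EY2. The groups did not overlap, although Y1 and N2 lay close together, and both EY libraries were below both Y libraries. Sox2 fell by 0.74 ± 0.18 (SE, n = 4 and 4) on the log2 scale, with an adjusted p of 0.0405 in edgeR's quasi-likelihood test. The call was kept without N2 or Y1 and lost without any of the other 6 libraries, with edgeR adjusted p values up to 0.107. Trp63 and Sox2 were the members whose 4 and 4 libraries did not overlap, both lower with YAP, a pattern seen in 10.5% of all genes tested. No member was higher in every YAP library, as 9.41% of all genes were.

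Elf3 (chr1:135253575-135258568, minus strand), an epithelial ETS factor of differentiating cells, moved the other way. It was at 14.6 CPM in N1, 21.8 CPM in N2, 13.7 CPM in E1 and 11.1 CPM in E2. In Y1 it was at 21.4 CPM, in Y2 at 34.0 CPM, in EY1 at 22.8 CPM and in EY2 at 31.5 CPM. The only overlap was N2 with Y1, which differed by less than 1 CPM. Elf3 rose by 0.88 ± 0.23 on the log2 scale (SE, n = 4 and 4), with an adjusted p of 0.0495 in edgeR's quasi-likelihood test. With the gland or duct cells left out, a setting added after the data were seen, the rise was 1.32 with an edgeR adjusted p of 0.0203. In a separate fit that kept gland or duct cells, the call was lost without cells holding other immune transcripts (edgeR adjusted p = 0.0635). It was also lost without any of 6 libraries, N1, E1, E2, Y2, EY1 and EY2 (edgeR adjusted p up to 0.133).

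**Figure D1:**
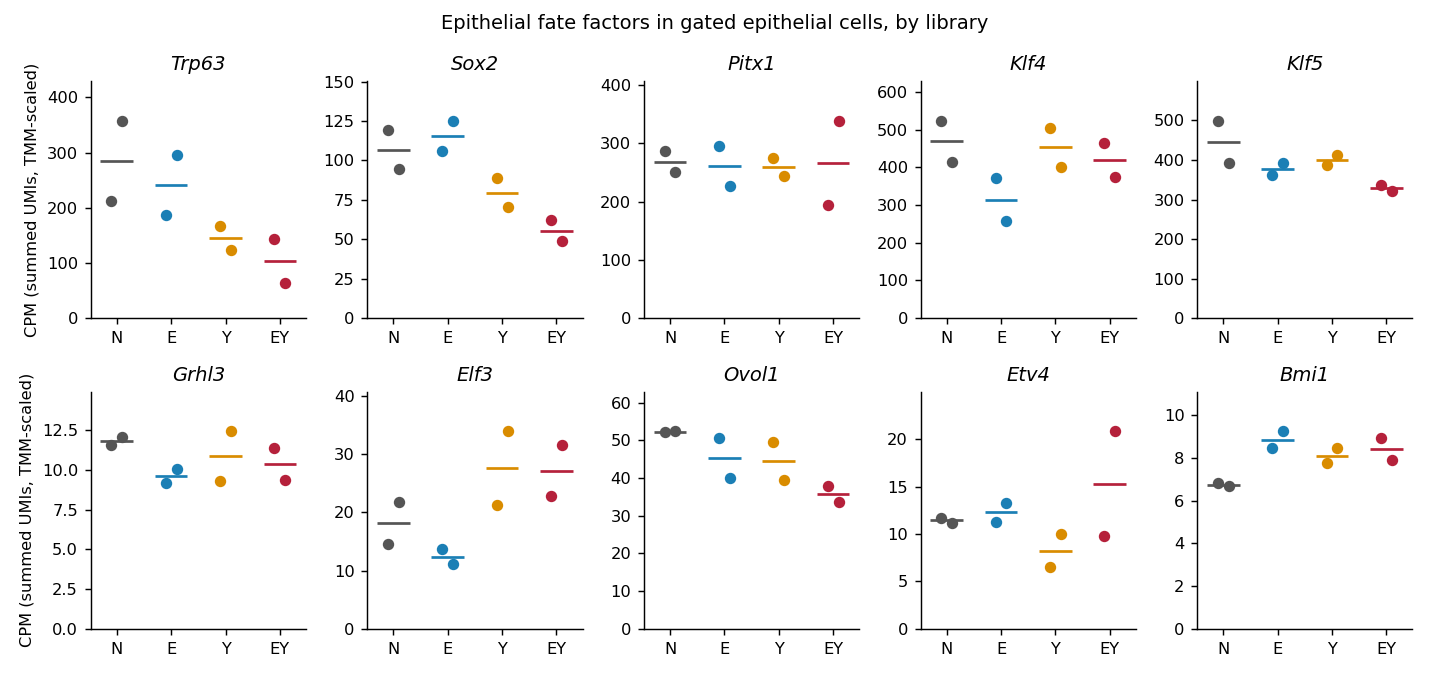
Level of each of the 10 factors in gated epithelial cells, in TMM-scaled CPM on a linear axis from 0, with 1 point per library and a bar at the mean of the 2 libraries of each group (N, E, Y, EY). Trp63 and Sox2 are lower in all 4 YAP libraries than in the other 4, and Elf3 is higher in all but for the overlap of N2 at 21.8 CPM with Y1 at 21.4 CPM.

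Promoters of the called genes are shown because YAP reaches DNA through TEAD factors, which bind the letters GGAATG. RefSeq promoter sequences (GRCm38.p6, 250 bases before to 50 after the start) were at hand for 5 of the 10 genes, Elf3, Bmi1, Sox2, Klf4 and Grhl3, and not for Trp63, Pitx1, Klf5, Ovol1 and Etv4. Both sequences below are printed 5′ to 3′ on the strand of the gene, from chr1:135258423-135258722 on the minus strand and chr3:34649745-34650044 on the plus strand, and capitals mark GGAATG or its reverse complement.
Elf3: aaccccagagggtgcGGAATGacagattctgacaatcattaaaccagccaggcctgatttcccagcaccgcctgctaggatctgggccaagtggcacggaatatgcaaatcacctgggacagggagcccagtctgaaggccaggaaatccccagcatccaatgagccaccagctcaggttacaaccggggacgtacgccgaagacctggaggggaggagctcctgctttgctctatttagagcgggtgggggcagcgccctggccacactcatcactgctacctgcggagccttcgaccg
Sox2: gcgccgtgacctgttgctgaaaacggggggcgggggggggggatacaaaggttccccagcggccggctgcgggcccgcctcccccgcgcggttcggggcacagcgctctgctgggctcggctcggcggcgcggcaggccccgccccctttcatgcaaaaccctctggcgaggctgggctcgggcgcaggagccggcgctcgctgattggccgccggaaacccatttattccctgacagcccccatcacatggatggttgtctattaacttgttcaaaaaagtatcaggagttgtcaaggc
The RefSeq start of Sox2 lies upstream of the GENCODE start given above. The letters occurred once in the Elf3 window, starting at -235 from the start site, and once in that of Bmi1 at -228, while the windows of Sox2, Klf4 and Grhl3 had 0 matches on either strand. Of 32851 promoters of the same length 14.7% held them. The AP-1 letters TGANTCA were in none of the 5 windows (7.81% of promoters). GC boxes, GGGCGG on either strand, numbered 6 for Bmi1, 4 for Klf4, 2 for Sox2, 1 for Grhl3 and 0 for Elf3 (at least 1 in 35.7% of promoters). These matches are descriptions of letters, and no binding was measured in these files.

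The other 7 genes were not called for the YAP effect. Ovol1 (chr19:5549136-5560646, minus strand), a zinc finger repressor that helps cells leave the cycle, was at 52.3 and 52.4 CPM in N, 50.7 and 40.1 CPM in E, 49.7 and 39.6 CPM in Y, and 37.8 and 33.6 CPM in EY. Both EY libraries were the lowest of the 8, and the log2 difference with YAP was -0.29 ± 0.13 (SE), edgeR adjusted p = 0.156. Klf5 (chr14:99298691-99315036, plus strand), a Krüppel-like factor of proliferating epithelium, was at 500 and 393 CPM in N, 363 and 393 CPM in E, 387 and 414 CPM in Y, and 338 and 321 CPM in EY. N1 was highest and EY again lowest, and the difference with YAP was -0.18 ± 0.11 (SE), edgeR adjusted p = 0.271.

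Klf4 (chr4:55527143-55532466, minus strand), a barrier and differentiation factor, was at 524 and 414 CPM in N, 371 and 258 CPM in E, 505 and 400 CPM in Y, and 464 and 374 CPM in EY. Both E libraries were below the other 6, though E1 and EY2 lay close together, and N, Y and EY overlapped. The YAP effect was 0.18 ± 0.18 (SE), edgeR adjusted p = 0.502. Klf4 is also used by leukocytes, and 11.9 to 21% of Ptprc-positive cells held a Klf4 UMI once each cell was thinned to 2000 UMIs. Pitx1 (chr13:55825051-55836192, minus strand) was at 286 and 251 CPM in N, 296 and 226 CPM in E, 275 and 244 CPM in Y, and 195 and 339 CPM in EY. Its lowest and highest libraries were both EY, and the YAP effect was -0.01 ± 0.18 (SE), edgeR adjusted p = 0.982.

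Grhl3, Etv4 and Bmi1 were counted at low levels. Grhl3 (chr4:135541888-135573630, minus strand), a grainyhead factor of barrier formation, ranged from 9.18 CPM in E1 to 12.4 CPM in Y2, and every group overlapped the YAP libraries (log2 difference -0.02 ± 0.16, edgeR adjusted p = 0.940). Bmi1 (chr2:18677018-18686629, plus strand) was at 6.81 and 6.67 CPM in N and at 7.76 to 9.25 CPM in the other 6 libraries, so both N libraries were lowest, and the YAP effect was 0.09 ± 0.15 (edgeR adjusted p = 0.706). Etv4 (chr11:101769742-101785371, minus strand) was at 11.7 and 11.2 CPM in N, 11.3 and 13.2 CPM in E, 6.53 and 9.96 CPM in Y, and 9.75 and 20.8 CPM in EY. Y1 was lowest and EY2 highest, which left the YAP effect at -0.04 ± 0.28 (edgeR adjusted p = 0.936). EY1 gave 24 Etv4 UMIs, 22 Bmi1 UMIs and 28 Grhl3 UMIs in all, so that a difference of EY for these genes was poorly resolved.

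Cells with a UMI were also counted after each cell had been thinned to 2000 UMIs. At this depth the share of cells with a UMI depends on the summed level as well. It therefore cannot tell fewer cells holding a transcript from fewer transcripts in each cell, and is the same measurement in another form. Trp63 was found in 34.5% of N1 cells (95% exact binomial interval 32.9 to 36.1), 44.3% of N2 (39.5 to 49.3), 31.2% of E1 (29.7 to 32.6) and 40.3% of E2 (36.2 to 44.5). It was found in 28.3% of Y1 (25.8 to 30.8), 22.1% of Y2 (19.5 to 24.8), 16.6% of EY1 (11.3 to 23.0) and 11.2% of EY2 (9.90 to 12.7). All 4 YAP libraries were again lowest, and the intervals, which cover counting error only, of E1 and Y1 overlapped. Before thinning the shares were 50.9 to 82.1% in the YAP libraries and 83.1 to 88.4% in the others. Ptprc-positive cells, which should lack the gene, held a Trp63 UMI in 0.195 to 2.46% after the same thinning, far below the epithelial cells of every library. Median depth before thinning was 12575 to 23570 UMIs in epithelial cells and 3373 to 10871 UMIs in Ptprc-positive cells.

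Sox2 was found in 20.5% of thinned N1 cells (19.2 to 21.9), 13.3% of N2 (10.1 to 16.9), 18.5% of E1 (17.3 to 19.8) and 21.3% of E2 (18.0 to 25.0). The shares were 14.6% of Y1 (12.7 to 16.6), 13.7% of Y2 (11.6 to 16.0), 10.1% of EY1 (5.97 to 15.6) and 8.63% of EY2 (7.45 to 9.94), against 0.0649 to 0.879% of Ptprc-positive cells. Here N2 lay below both Y libraries, and both EY libraries were lowest. Cells with a UMI of both factors were 5.30 to 10.3% of epithelial cells in the 4 libraries without YAP and 1.43 to 4.14% in the 4 with it, which did not overlap, though EY1 rested on 7 such cells. Without thinning these shares were 55.9 to 76.7% and 29.6 to 56.4%, which overlapped. The share with both depends on the share of each factor, and co-detection beyond that was not tested.

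**Figure D2:**
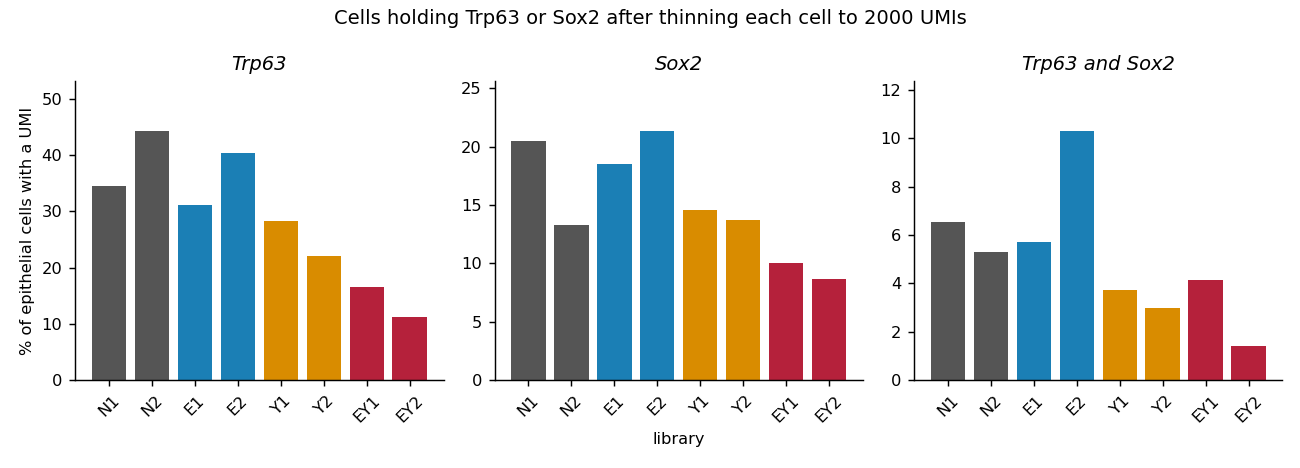
Percent of epithelial cells holding at least 1 UMI of Trp63, of Sox2, or of both, after each cell was thinned to 2000 UMIs, with 1 bar per library (gray N, blue E, orange Y, red EY) and axes from 0. Trp63 goes from 44.3% in N2 down to 11.2% in EY2, and cells with both from 10.3% in E2 down to 1.43% in EY2.

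Both transgenes together were set against controls next, and Sox2 was lower in EY than in N. These libraries also entered the YAP effect, so the result is not independent of it. Sox2 fell by 0.96 ± 0.21 on the log2 scale (SE, n = 2 and 2), with an edgeR adjusted p of 0.0242, and was the 1 member called against 18.8% of all genes tested. Trp63 had a larger difference of -1.49 ± 0.44 with an edgeR adjusted p of 0.0528, and was called under all 7 other settings, with adjusted p values up to 0.0472. The values for Ovol1 were -0.56 ± 0.18 (edgeR adjusted p = 0.0659) and for Klf5 -0.44 ± 0.15 (0.0787), both of them with the 2 EY libraries below the 2 N libraries. Elf3 stood at 0.62 ± 0.31 (0.178), and the other 5 genes lay between -0.22 for Grhl3 and 0.50 for Etv4. The Sox2 call was lost without N1 (adjusted p = 0.136), N2 (0.0625) or EY2 (0.144), and without N1 only 5 genes in all were called by edgeR. Trp63 was called without EY1, at -2.14 with an edgeR adjusted p of 0.0174, and stood at -1.0 without EY2.

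YAP alone and E6-E7 alone gave no call among the 10 genes in edgeR or in DESeq2. For Y against N, 0.457% of all genes were called by edgeR, and the values of the 3 genes above were -0.97 ± 0.43 for Trp63 (edgeR adjusted p = 0.427), 0.62 ± 0.30 for Elf3 (0.481) and -0.42 ± 0.20 for Sox2 (0.463), with 0 members at an unadjusted p under 0.05. Without upper limits on cells 2 members were called by edgeR, Elf3 at 1.45 (adjusted p = 0.0113) and Trp63 at -1.32 (0.0330). In that fit 1504 of all 14816 genes tested were called. For E against N, where 0.243% of all genes were called, Klf4 had the largest value, -0.58 ± 0.23, and was the 1 member with an unadjusted p under 0.05 (edgeR adjusted p = 1.0). Trp63 differed by -0.24 ± 0.42 and Sox2 by 0.11 ± 0.20 in E, with N and E libraries overlapping for both.

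**Figure D3:**
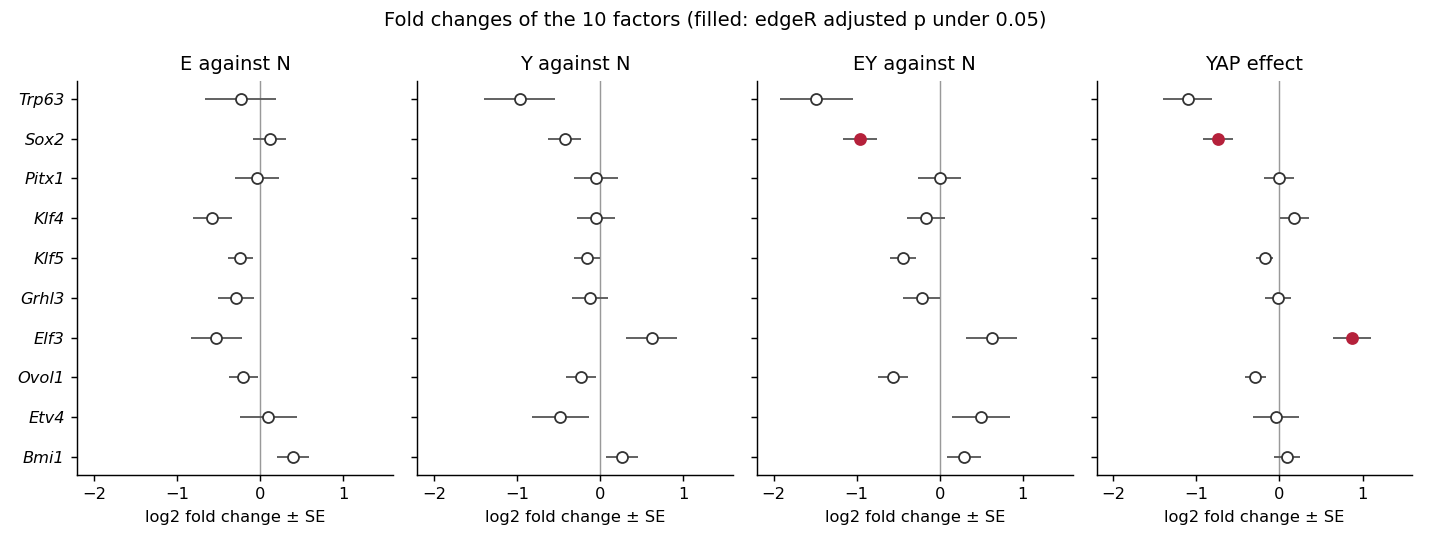
Log2 fold change with its SE for the 10 factors in E against N, Y against N and EY against N (2 libraries each) and for the YAP effect (4 against 4), with filled points where edgeR's adjusted p was under 0.05. Sox2 is filled for EY against N at -0.96 and for the YAP effect at -0.74, and Elf3 for the YAP effect at 0.88. The comparisons with N share its 2 libraries.

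The 4 groups also allow the E6-E7 effect, E and EY against N and Y, taken from the same additive model as the YAP effect. They allow the interaction too, which asks whether the effect of both transgenes is anything other than their separate log2 effects added up. For E6-E7, 0 members were called by edgeR or DESeq2 against 0.406% of all genes, and 1, Klf5 at -0.26 ± 0.11, had an unadjusted p under 0.05 (edgeR adjusted p = 0.425). Etv4 had the largest value, 0.52 ± 0.28 (0.484). For the interaction edgeR called 0% of all genes, with 1562 genes at an unadjusted p under 0.05, and DESeq2 called 89 genes. Among the members 0 were called by either tool and 0 had an unadjusted p under 0.05. The interaction estimates were -0.65 ± 0.29 for Sox2 and -0.28 ± 0.60 for Trp63, so that a further drop of Trp63 in EY beyond the sum was not detectable with these libraries.

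Where each factor sits along the basal to suprabasal axis was read within libraries. Basal-range cells had at least 50% of their Krt5, Krt14, Krt15, Krt13 and Krt4 UMIs in Krt5, Krt14 and Krt15, the basal keratins, and suprabasal-range cells had less. These ranges are cuts of a per-cell score rather than cell types, and 590 cells lay between 40 and 60%. The suprabasal range held 1338 cells, from 4.39% of EY2 (95% exact interval 3.54 to 5.38) to 13.7% of Y2 (11.6 to 16.0). Its mean share was 9.45 ± 3.84% with YAP and 10.1 ± 2.24% without (SD, n = 4 each), a difference of -0.63 points (exact two-sided permutation test over 70 labellings, p = 0.800). EY1 had 16 suprabasal-range cells, under the minimum of 20, so the paired fit used 7 libraries with the library as block.

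In that comparison 6 of the 10 factors were higher in the suprabasal range and 2 lower, against 15% and 17.6% of the 11178 genes tested. Grhl3 rose from 6.53 to 11.8 CPM in the basal range to 11.9 to 36.0 CPM in the suprabasal range, a log2 difference of 1.56 ± 0.17 (SE, n = 7 pairs, edgeR adjusted p = 4.28e-05). Ovol1 rose from 31.0 to 48.6 CPM to 49.6 to 131 CPM (1.24 ± 0.13, edgeR adjusted p = 3.08e-05), and the ranges did not overlap. Elf3 rose from 9.09 to 30.1 CPM to 33.0 to 271 CPM (1.90 ± 0.34, edgeR adjusted p = 0.00122). Its 271 CPM came from the 31 suprabasal-range cells of N2, the library highest in gland or duct markers, and the log2 difference was 1.54 without N2 and 1.40 without gland or duct cells, called in both by edgeR.

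Smaller rises were seen for Klf4 (0.42 ± 0.09, edgeR adjusted p = 0.00422), Pitx1 (0.42 ± 0.08, 0.00123) and Klf5 (0.33 ± 0.07, 0.00402). Klf4 was at 246 to 510 CPM in the basal and 351 to 728 CPM in the suprabasal range, with N1 nearly level at 510 and 515 CPM. Klf4 was not called with the keratin minimum at 2% (0.19, edgeR adjusted p = 0.131), nor Klf5 with cuts at 25 and 75% (0.35, 0.0818). All 6 of these genes were higher in the suprabasal range in each of the 7 libraries, as were 10.3% of all genes. Some of these were near ties, in N2 for Grhl3 (11.8 and 11.9 CPM) and Klf5 (385 and 387 CPM), and in EY2 for Pitx1 (330 and 331 CPM).

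Trp63 fell most steadily. Its basal-range level was 227 CPM in N1, 361 CPM in N2, 202 CPM in E1, 302 CPM in E2, 174 CPM in Y1, 130 CPM in Y2 and 62.8 CPM in EY2. The suprabasal-range levels of the same libraries were 87.5, 104, 63.7, 74.8, 60.6, 58.3 and 34.0 CPM. Each library went down, so that the log2 difference was -1.48 ± 0.12 (SE, n = 7 pairs, edgeR adjusted p = 3.83e-06), and the basal range of EY2 was at the level of the suprabasal range of Y1 and E1. Etv4 fell by 1.46 ± 0.20 (edgeR adjusted p = 0.000170), in 6 of 7 libraries, with N2 the exception at 10.9 and 11.9 CPM. That exception rested on the 31 suprabasal-range cells of N2, with 387560 UMIs over all genes, so a low-level gene was poorly resolved there. Bmi1 was lower in all 7 libraries, like Trp63 and 14.5% of all genes, but its difference of -0.36 ± 0.13 was not called (edgeR adjusted p = 0.0555).

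Sox2 had no called slope along this axis. Its log2 difference was -0.06 ± 0.08 (edgeR adjusted p = 0.707), higher in the suprabasal range in 3 libraries and lower in 4. In N1 it was at 115 CPM in basal-range and 124 CPM in suprabasal-range cells, in E1 at 104 CPM in both, and in EY2 at 47.5 and 47.9 CPM. The largest gap was in N2, 93.4 against 68.5 CPM, and rested on its 31 suprabasal-range cells.

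**Figure D4:**
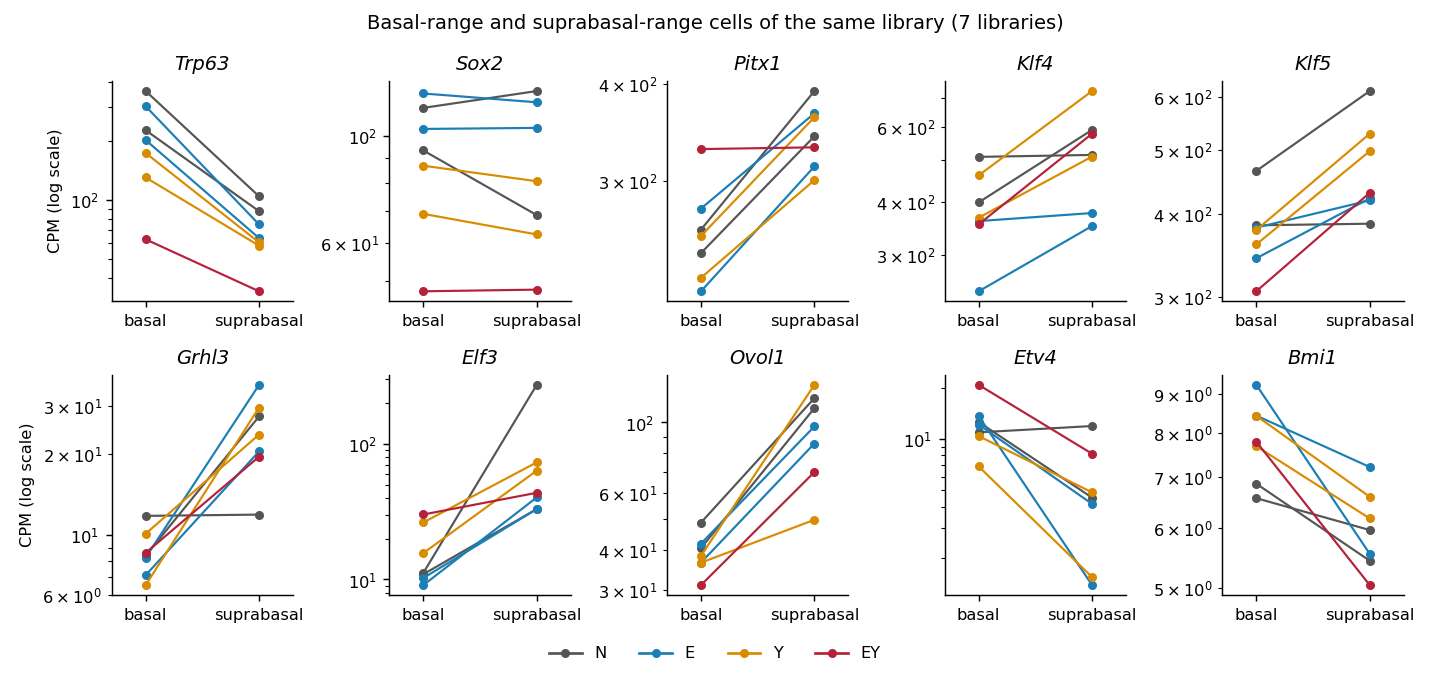
CPM of each factor in basal-range and suprabasal-range cells on log axes, with a line joining the ranges of each of 7 libraries (gray N, blue E, orange Y, red EY2). Trp63 goes down and Grhl3, Elf3, Ovol1, Klf4, Klf5 and Pitx1 go up in all 7, while Sox2 goes either way. N2 is nearly level for Grhl3 and Klf5, EY2 for Pitx1 and N1 for Klf4. N2, with 31 suprabasal-range cells, differs for Elf3 at 271 CPM and for Etv4, which goes there from 10.9 to 11.9 CPM.

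The YAP effect was then taken within each range, which holds the keratin cut constant, again with the E6-E7 transgene as a covariate. In basal-range cells of all 8 libraries Trp63 fell by 1.10 ± 0.28 (edgeR adjusted p = 0.0481), Sox2 fell by 0.71 ± 0.18 (0.0463) and Elf3 rose by 1.22 ± 0.21 (0.0154). These 3 of 10 calls stand against 8.85% of all genes tested. In the 8 fits that left out 1 library edgeR called Elf3 in 6, losing it without E1 (0.0641) or Y2 (0.0581). Trp63 was called in 1 of them, without Y1, and Sox2 in 2, without N2 or Y1. Trp63 was not called with cuts at 25 and 75% (edgeR adjusted p = 0.0529), nor Sox2 without other immune transcripts (0.0532).

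In suprabasal-range cells of 7 libraries Trp63 fell by 0.83 ± 0.18 (edgeR adjusted p = 0.0489), the 1 member called against 3.02% of all genes. With cuts at 25 and 75%, where both EY libraries had too few cells, this value was -0.04, without other immune transcripts it was -0.51 (edgeR adjusted p = 0.304), and without N1, N2, E1, E2, Y1, Y2 or EY2 the adjusted p was 0.0611 to 0.311. Sox2 was at -0.80 ± 0.25 there (edgeR adjusted p = 0.135) and Elf3 at -0.54 ± 0.64 (0.699), the latter turning to 0.69 without N2 and to 0.87 without gland or duct cells. Without upper limits on cells Elf3 was at 0.86 with an edgeR adjusted p of 0.0259, past the threshold. Whether the suprabasal-minus-basal difference itself changed with YAP was tested as an interaction, and 0 of 10 members were called by edgeR or DESeq2 against 0.0716% of all genes. Trp63, at 0.46 ± 0.19 (edgeR adjusted p = 0.649), was the 1 member with an unadjusted p under 0.05.

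Because each library mixes cells with and without the transgene, cells were also split, in a comparison added after the data were seen, by whether they held a Yap1 UMI after thinning to 2000 UMIs. In the 4 libraries with the YAP transgene, edgeR called 34 of 11363 genes (0.299%) between Yap1-positive and Yap1-negative cells and 0 members. Trp63 differed by -0.23 ± 0.08 (SE, edgeR adjusted p = 0.340) and Etv4 by -0.43 ± 0.13 (0.290), both with an unadjusted p under 0.05, while Sox2 was at -0.08 ± 0.06 and Elf3 at -0.15 ± 0.16. In the 4 libraries without the transgene edgeR called 1 gene (0.0088%), with Trp63 at 0.12 ± 0.07 and Etv4 at 0.07 ± 0.16. The difference between the 2 settings was called for 7 genes (0.0616%) and 0 members, and stood at -0.34 ± 0.11 for Trp63 (edgeR adjusted p = 0.673). A cell without a Yap1 UMI at this depth may still express the gene, a Yap1 UMI may be endogenous, and DESeq2 was not run on this split.

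Related genes were read from lists, each named by its largest called members. The counts below stand against 8.98% of all genes called for the YAP effect, 18.8% for EY against N, and 15% higher and 17.6% lower in the suprabasal range. Of 9 basal and progenitor factors tested, 1 rose and 2 fell with YAP. Tfap2c, an AP-2 factor of early keratinocytes, fell by 1.35 ± 0.21 (edgeR adjusted p = 0.0103), from 41.9 to 52.0 CPM down to 11.4 to 30.6 CPM. Barx2, a homeobox factor, fell by 0.75 ± 0.20 (edgeR adjusted p = 0.0499). The median of the list was -0.50 against -0.03 over all genes. In EY against N, 0 rose and 3 fell, led by Tfap2c at -2.04 ± 0.20 and Barx2 at -1.16 ± 0.15. In the suprabasal range 2 of the 9 were higher, Barx2 and Foxe1, and 2 were lower, Nfib and Tbx3.

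Among 12 differentiation factors, 1 rose and 1 fell with YAP. Prdm1, which encodes BLIMP1, rose by 1.98 ± 0.32 (edgeR adjusted p = 0.0118), from 0.877 to 3.34 CPM up to 7.04 to 10.8 CPM. For EY against N this list had 0 higher and 3 lower, with Maf at -2.98 ± 0.61 and a median of -0.32 against -0.05 over all genes. In the suprabasal range 8 were higher, led by Elf5 at 3.43 ± 0.44 and Zfp750 at 1.91 ± 0.19, and 1 was lower, Ovol2 at -1.26 ± 0.19, opposite in sign to its paralog Ovol1.

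The ETS and ERK response list held Etv4's relative Etv5 and the ERK feedback inhibitors. Of its 9 genes 0 rose and 2 fell with YAP, Spry2 by 1.55 ± 0.40 (edgeR adjusted p = 0.0468) and Etv5 by 1.15 ± 0.23 (0.0229), with a median of -1.30 against -0.03 over all genes. For EY against N, 3 fell, the largest being Spry1 by 2.17 ± 0.53 and Etv5 by 1.37 ± 0.33, while Etv4 was at 0.50 ± 0.35. In the suprabasal range 4 of 6 tested were lower, as Etv4 was, with Etv5 at -2.92 ± 0.32 and Spred1 at -1.25 ± 0.13.

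Targets and partners of the other members were counted alike. Of 12 genes linked to p63 in basal cells, such as keratins, integrins and laminin chains, 0 were called for the YAP effect (median 0.02 against -0.03 over all genes). For EY against N 1 fell, Fgfr2, by 1.61 ± 0.31 (edgeR adjusted p = 0.0187). In the suprabasal range 11 of these 12 fell, among them Krt5 and Krt14, whose fall the keratin cut itself fixed. Jag2 at -3.40 ± 0.23 and Itga3 at -2.93 ± 0.14 had the largest falls, and Perp, a desmosome gene, rose by 0.81 ± 0.07.

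Of 8 Krüppel-like factors outside the members, Klf7 rose with YAP by 0.84 ± 0.21 (edgeR adjusted p = 0.0456) and none fell. Klf7 rose by 0.99 ± 0.27 in EY against N too, where Klf9 fell by 1.41 ± 0.40 and Klf13 by 0.97 ± 0.23. Along the keratin axis Klf3 was higher at 0.28 ± 0.09, and Klf9 at -1.21 ± 0.09 and Klf10 at -0.50 ± 0.15 were lower. Of 12 PRC1 subunits 0 were called for the YAP effect, and the calls in the other comparisons were no more than the background shares, 1 higher and 1 lower in EY against N (Pcgf5 at 0.71 ± 0.20 and Cbx8 at -1.62 ± 0.42), and 1 higher and 2 lower in the suprabasal range (the lower ones Pcgf2 at -0.98 ± 0.19 and Phc2 at -0.55 ± 0.10).

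Of 10 cornification genes, the products of terminally differentiating cells, 3 rose and 1 fell with YAP. Sprr3, an envelope precursor, was at 0.0 to 0.731 CPM without YAP and at 4.06 to 20.8 CPM with it, a rise of 4.54 ± 0.80 (edgeR adjusted p = 0.0148). Sbsn, a secreted protein of suprabasal cells, rose by 1.69 ± 0.21 (0.00430), and Calml3, a calmodulin-like protein of epithelium, fell by 1.94 ± 0.30 (0.00997). In EY against N 4 rose, led by Sprr3 at 5.09 ± 0.84 and Tgm1 at 1.26 ± 0.31, and Calml3 fell by 2.41 ± 0.34. All 9 that could be tested were higher in the suprabasal range, with Sprr3 at 4.43 ± 0.42 and Tgm3 at 3.77 ± 0.23.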

How the data were processed

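Tongue epithelial cells of 8 mouse libraries (2 each of N, E, Y and EY) were measured by droplet 3' single-cell RNA-seq. The authors aligned the reads to mm10 and counted UMIs with Cell Ranger 5.0.0, and deposited raw UMI counts per gene and cell for each library. The labels and the study's methods name different kit versions, which is not resolved here. Cells were kept within the study's limits (1000 to 5500 genes, at most 30000 UMIs, at most 7% mitochondrial UMIs), 25199 of 42550, and then gated as epithelial. No doublet caller was run, and the upper limits were the only step against doublets. Counts were summed per library, filtered with filterByExpr, scaled by TMM and tested with edgeR 4.0.16 (quasi-likelihood) in R 4.3.3, with DESeq2 1.42.0 as an alternative. Comparisons with N and the interaction used a mean per group over all 8 libraries. The YAP and E6-E7 effects used an additive model of both transgenes, as did the YAP effect within each keratin range. The comparison of the keratin ranges was a separate fit with the library as block. Log2 fold changes are edgeR's, and the SE was derived from the test's F value. Gated cells of a library are not replicates, so n counts libraries. Precision followed depth, from 2454816 epithelial UMIs in EY1 to 55154619 in E1. The code was tested on simulated counts. Shares used cells thinned to 2000 UMIs with exact 95% intervals in scipy 1.17.1.

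All members are named. From each of 7 related lists, up to 2 called genes with the largest rise and up to 2 with the largest fall are named. Yap1 checks the YAP transgene, and Mcm2, given for N and E only, that of E6-E7. A few called genes of these lists enter the counts and are not reported here by name. The members and lists were chosen with earlier results of these data known. Gene positions are those of GENCODE M21. Alternatives were DESeq2, no filter on low counts, other cell gates, other keratin cuts and leaving out each library, and the fit without gland or duct cells (at least 0.05% of UMIs from their markers) was added after the data were seen.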

Additional observations from a re-analysis of the deposited data

How the results depend on the processing

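Calls near the threshold moved with the cells and libraries kept, and the cause was not tested unless named. Of the counts of called genes and the suprabasal-range share, 102 values under other settings stayed the same or within 1.5 times, 44 counts were higher, 7 were lower and 1 share changed sign. Without 1 library 95 stayed, 9 counts were higher, 62 were lower and 2 shares changed sign. For single members 648 values under other settings kept their sign and side of the threshold, 31 gained the call, 8 lost it and 47 changed sign, and without 1 library 685 kept theirs, 3 gained, 37 lost and 75 changed sign. In the report the fits that used suprabasal-range cells never held EY1, so leaving EY1 out repeated them unchanged. These repeats are counted among the values that stayed. None of the members' values that changed sign was called in the report, and Elf3 without upper limits, in the suprabasal range under YAP, was the only one called after the change. Bmi1 and Etv4 failed the filter in some other fits of the YAP effect in the suprabasal range and have no value there. No paired analysis was possible because the labels give the groups no shared replicate numbers.

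Members called in EY against N (1 in the report) numbered 2 with DESeq2, 3 without the filter on low counts, 4 without upper limits, 2 from 200 genes a cell, 5 at keratins of 2%, 3 without other immune transcripts and 2 without gland or duct cells. In the same fits all genes called were 2958 of 13555 with DESeq2, 4273 of 21743 without the filter and 6042 of 14816 without upper limits. They were 2818 of 13633 from 200 genes a cell and 3347 of 12543 at keratins of 2%. Without other immune transcripts they were 2729 of 12929, and without gland or duct cells 2884 of 13463. For Y against N (0) there was 1 without the filter and 2 without upper limits, for the range by YAP interaction (0) 1 without upper limits, and for the YAP effect in the suprabasal range (1) 2 with DESeq2, 2 without the filter, 4 without upper limits, and 0 without other immune transcripts or with cuts at 25 and 75%. All genes called in these fits were 1208 of 21743 and 1504 of 14816 for Y against N. For range by YAP they were 698 of 11852. In the suprabasal range they were 658 of 9670 with DESeq2, 1249 of 17355 without the filter and 2727 of 10723 without upper limits. Without other immune transcripts they were 194 of 8317, and with cuts at 25 and 75% they were 5 of 7361. Over the fits that left out 1 library, members called ranged from 0 to 2 for the YAP effect and EY against N, from 0 to 3 for the YAP effect in the basal range and from 0 to 1 in the suprabasal range.

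All genes called numbered, without the filter and without upper limits, 4273 and 6042 for EY against N (2550 in the report), 1208 and 1504 for Y against N (62), 367 and 66 for E against N (33), 672 and 20 for the interaction (0), 3250 and 6131 for the YAP effect (1217), 765 and 36 for E6-E7 (55), 59 and 698 for range by YAP (8), 3376 and 6011 for the basal range (1108) and 1249 and 2727 for the suprabasal range (292). DESeq2 called 457 for Y against N, 131 for E against N, 89 for interaction, 2762 for YAP, 293 for E6-E7, 50 for range by YAP, 2447 in the basal and 658 in the suprabasal range. Keratins at 2% gave 198 for Y against N, 99 for E6-E7 and 21 for range by YAP. Without gland or duct cells there were 105 for Y against N, 56 for range by YAP and 598 in the suprabasal range, without other immune transcripts 194 in the suprabasal range, from 200 genes a cell 5 for range by YAP, and with cuts at 25 and 75%, where fewer libraries enter, 0 for range by YAP and 5 in the suprabasal range. Without 1 library the counts ran from 5 to 4061 for EY against N, 0 to 98 for Y against N, 0 to 29 for E against N, 0 to 30 for interaction, 324 to 1707 for YAP, 1 to 36 for E6-E7, 4 to 13 for range by YAP, 286 to 1713 in the basal and 14 to 340 in the suprabasal range.

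The difference in suprabasal-range share, -0.63 points, was 1.18 at keratins of 2% and ran from -2.04 to 1.06 without 1 library. With DESeq2 the values of the other sign were Pitx1 at 0.028 in EY against N, Pitx1 at 0.0097 in the YAP effect, Grhl3 at 0.013 in range by YAP interaction, Klf5 at 0.011 in the suprabasal range under YAP. Without upper limits the values of the other sign were Pitx1 at 0.15 in EY against N, Pitx1 at 0.059 and Grhl3 at 0.31 in Y against N, Grhl3 at 0.012, Ovol1 at 0.069 and Etv4 at -0.081 in E against N, Grhl3 at -0.56 and Elf3 at -0.42 in interaction, Pitx1 at 0.10, Grhl3 at 0.034 and Etv4 at 0.29 in the YAP effect, Sox2 at 0.060 in suprabasal against basal range, Etv4 at -0.072 in range by YAP interaction, Klf4 at -0.011, Grhl3 at 0.22 and Etv4 at 0.21 in the basal range under YAP, Grhl3 at 0.13 and Elf3 at 0.86 in the suprabasal range under YAP. From 200 genes a cell the values of the other sign were Pitx1 at 0.018 in EY against N, Pitx1 at 0.00048 in the YAP effect. At keratins of 2% the values of the other sign were Etv4 at -0.19 in E against N, Pitx1 at -0.052 in the E6-E7 effect, Sox2 at 0.083 in suprabasal against basal range, Pitx1 at -0.0011 in the basal range under YAP, Elf3 at 0.71 in the suprabasal range under YAP. Without other immune transcripts the values of the other sign were Etv4 at 0.00031 in the YAP effect, Pitx1 at -0.033 in the E6-E7 effect, Grhl3 at 0.12 and Bmi1 at 0.045 in range by YAP interaction, Pitx1 at -0.016 in the basal range under YAP, Klf5 at 0.0091 and Grhl3 at 0.015 in the suprabasal range under YAP. Without the filter the values of the other sign were Pitx1 at -0.0028 in the E6-E7 effect, Klf5 at 0.0084 in the suprabasal range under YAP. With cuts at 25 and 75% the values of the other sign were Pitx1 at 0.059, Grhl3 at 0.71, Ovol1 at 0.11 and Bmi1 at 0.093 in range by YAP interaction, Etv4 at 0.026 in the basal range under YAP, Klf5 at 0.32 and Grhl3 at 0.73 in the suprabasal range under YAP. Without gland or duct cells the values of the other sign were Grhl3 at 0.011 in the basal range under YAP, Elf3 at 0.87 in the suprabasal range under YAP. Without 1 library the values that crossed 0 ran Pitx1 from -0.47 to 0.36, Klf4 from -0.31 to 0.054 and Etv4 from -0.24 to 0.89 in EY against N, Pitx1 from -0.14 to 0.061, Klf4 from -0.22 to 0.14, Klf5 from -0.32 to 0.043 and Grhl3 from -0.36 to 0.087 in Y against N, Trp63 from -0.59 to 0.19, Sox2 from -0.042 to 0.30, Pitx1 from -0.25 to 0.14 and Etv4 from -0.014 to 0.21 in E against N, Trp63 from -0.93 to 0.21, Pitx1 from -0.38 to 0.46, Klf5 from -0.21 to 0.13 and Ovol1 from -0.27 to 0.064 in interaction, Pitx1 from -0.20 to 0.13, Grhl3 from -0.082 to 0.10 and Etv4 from -0.43 to 0.18 in the YAP effect. Others ran Pitx1 from -0.19 to 0.14 in the E6-E7 effect, Sox2 from -0.11 to 0.035, Grhl3 from -0.37 to 0.15, Ovol1 from -0.50 to 0.19 and Etv4 from -0.13 to 0.27 in range by YAP interaction, Pitx1 from -0.17 to 0.15, Klf4 from -0.010 to 0.28, Grhl3 from -0.11 to 0.16 and Etv4 from -0.40 to 0.16 in the basal range under YAP, Klf5 from -0.13 to 0.17, Grhl3 from -0.21 to 0.20, Elf3 from -1.06 to 0.69, Etv4 from -0.92 to 0.46 and Bmi1 from -0.30 to 0.20 in the suprabasal range under YAP.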
